A study of Mus musculus with 14 samples.

Results

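Aoah encodes acyloxyacyl hydrolase, a lipase, and it was the gene delivered to one arm of a study of mouse liver cancer. It is 1 of 29923 gene symbols in the deposited expression table, and its values are described here in each of the 14 tumors, together with the genes whose levels followed it from tumor to tumor. The tumors were hepatocellular carcinomas of C57BL/6 mice, started by injecting plasmids quickly and in a large volume into the tail vein, which drives DNA into hepatocytes. All groups shared the SB100 transposase, which inserts the plasmid cassettes into the genome, and a MYC plasmid with an EF1a promoter. In the 4 Luc Aoah and 4 Luc vector tumors the MYC cassette also carried luciferase (MYC-Luc). In the 3 LucOS Aoah and 3 LucOS vector tumors it further carried the OVA, SIN and SIY antigens (MYC-LucOS). Aoah came on the plasmid PKT2/CLP-Aoah, and vector tumors received PKT2/CLP-Vec in its place. A plasmid for truncated beta-catenin (pT3-N90-CTNNB1) is listed as well, without a statement of which tumors received it. An anti-PD1 protocol is given in the labels, but no label says that any of these 14 tumors was treated. The labels give neither sex nor age, and they number the tumors without saying that each came from its own mouse, so p-values here measure only the spread between these samples.

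Acyloxyacyl hydrolase is known for removing the secondary fatty acyl chains of bacterial lipopolysaccharide (LPS), which leaves an LPS that no longer activates Toll-like receptor 4. The enzyme also acts on phospholipids and lysophospholipids. It is made as a precursor that is cut into a small saposin-like subunit and a large subunit that carries the lipase site. In normal liver its main source is the Kupffer cell, the resident macrophage, and other myeloid cells and natural killer (NK) cells make it as well, whereas hepatocytes are not known as a source. Delivery into hepatocytes therefore places the gene in a cell type that does not normally make it.

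In the GENCODE M21 annotation (build GRCm38) the mouse gene, ENSMUSG00000021322, lies on the plus strand of chromosome 13, from 20794113 to 21036617, a span of 242505 bases. The authors' build was mm39, so these positions do not apply to their alignment. It has 4 annotated transcripts, of which Aoah-201 is spliced from 21 exons into 2921 bases, with 1725 coding bases for 574 amino acids. The first and last coding bases of Aoah-201 are shown because they bound the open reading frame whose mRNA was counted, with the start and stop codons in capitals. The 250 bases of RefSeq GRCm38.p6 before the gene's start, chr13:20793863-20794112 on the plus strand, are the native promoter, which a plasmid cassette does not use. Capitals there mark AGGAAG and GGAAGT, whose GGAA core is that of ETS factors such as PU.1.

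Aoah coding start: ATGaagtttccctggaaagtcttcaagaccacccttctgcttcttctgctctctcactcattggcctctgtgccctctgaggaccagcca
Aoah coding end: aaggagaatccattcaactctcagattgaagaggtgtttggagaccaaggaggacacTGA
Aoah upstream window: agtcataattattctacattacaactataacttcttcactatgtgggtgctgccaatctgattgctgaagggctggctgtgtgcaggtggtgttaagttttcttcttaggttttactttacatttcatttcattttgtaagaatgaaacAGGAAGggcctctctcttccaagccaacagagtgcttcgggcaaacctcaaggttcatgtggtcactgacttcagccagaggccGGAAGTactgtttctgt

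Searched on both strands, the window held AGGAAG once, 101 bases before the start, and GGAAGT once, 17 bases before it. Windows of the same length before 32851 mouse gene starts held these motifs in 29.5% and 19.7% of cases. CCAAT stood once, 198 bases upstream, and occurs in 33.8% of windows. The letters TATAAA (12.4% of windows) and GAGGAAGT (2.44%) were not in this window. A match is only a match of letters. Whether the delivered open reading frame has exactly the mouse sequence above is not stated in the labels, and reads from the plasmid and from the native gene cannot be told apart in a gene total.

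The values are in TPM, a relative transcript level in which a gene's reads are divided by its length and every tumor is scaled to the same total. That scaling removes the sequencing depth of each tumor. The authors' deposited tables give Aoah 63.8 (Luc) and 59.4 (LucOS) mean normalized counts for each TPM of its mean. At these ratios the lowest levels, 0.74 TPM in Luc and 1.28 TPM in LucOS, would be about 47.2 and 76.0 normalized counts. Counts per tumor were not used here, so no counting interval is given. Between 11478 and 12836 genes reached 1 TPM per tumor. Albumin, the main plasma protein of hepatocytes, stood at 1298 to 13334 TPM, and no marker of a 23-gene hepatocyte list was at 0 throughout any group. Composition set a pair of tumors apart. Small noncoding RNA genes (316 genes) made up 9.19% of the TPM in Luc Aoah 3 and 1.06% to 2.37% in the other 13 tumors. Mitochondrially encoded genes (15 genes) made up 16.6% in LucOS Aoah 3 and 3.41% to 8.45% elsewhere. Luc Aoah 3 had the lowest and LucOS Aoah 3 the highest Aoah level of the Aoah tumors, so counts of calls and the slopes of named genes and gene groups are also given without them.

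Aoah was highly expressed in every tumor that received it. It stood at 504, 685, 284 and 519 TPM in Luc Aoah 1 to 4, and at 576, 589 and 931 TPM in LucOS Aoah 1 to 3. By level it ranked between 173 and 488 among the genes of these 7 tumors (median rank 249), and it took 0.0284% to 0.0932% of all TPM. The delivered gene was therefore among the more abundant transcripts of each tumor. The highest Luc Aoah tumor had 2.42 times the level of the lowest, and the highest LucOS Aoah tumor 1.62 times that of the lowest.

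The vector tumors were less uniform. Aoah stood at 18.6, 0.74, 54.8 and 0.89 TPM in Luc vector 1 to 4, and at 1.28, 1.59 and 3.43 TPM in LucOS vector 1 to 3. Luc vector 1 and 3 thus stood apart from the other 5 vector tumors, all of which were under 4 TPM. Within Luc vector tumors the highest level was 74.0 times the lowest, against 2.68 times in LucOS vector tumors. The rank of Aoah among all genes ran from 2083 to 12774 in the vector arm.

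**Figure D1:**
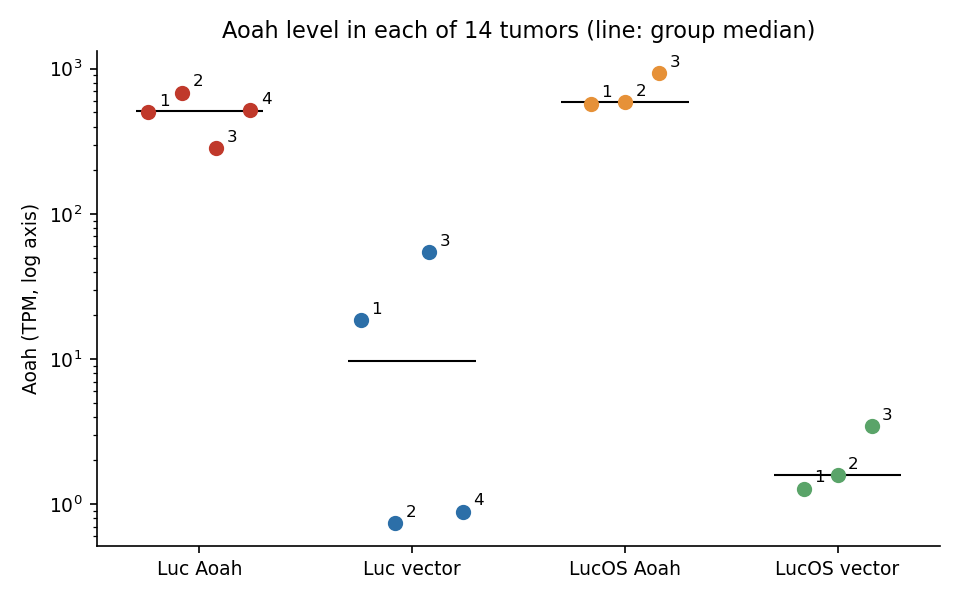
Aoah level (TPM, log axis) in each of 14 tumors, by group; points carry the tumor number and lines are group medians. All 7 Aoah tumors lie at 284 TPM or more, Luc vector 1 and 3 at 18.6 and 54.8 TPM, and the other 5 vector tumors at 0.74 to 3.43 TPM.

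The mean level was 498 ± 165 TPM (SD, n = 4) in Luc Aoah and 18.7 ± 25.4 TPM (SD, n = 4) in Luc vector tumors, and 699 ± 201 TPM (SD, n = 3) in LucOS Aoah and 2.10 ± 1.16 TPM (SD, n = 3) in LucOS vector tumors. Groups did not overlap in either model: the lowest Aoah tumor was 5.18 times the highest vector tumor in Luc and 168 times in LucOS. The fold depends on the summary in Luc, where means gave 26.6-fold and medians 52.5-fold, and less so in LucOS, where they gave 333-fold and 370-fold.

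On the log2(TPM + 1) scale, limma fitted over all 14 tumors gave a rise of 5.94 in Luc (SE 0.95, adjusted p = 0.00228) and of 7.84 in LucOS (SE 1.09, adjusted p = 0.0138). In Luc, 22.2% of the 13466 genes tested passed an adjusted p of 0.05 (7.93% higher and 14.3% lower), and the median change of all genes was -0.24. Aoah had the third largest change by size there but ranked only 294 by p. In LucOS, 0.965% of genes passed (0.75% higher and 0.215% lower), and Aoah had the largest change of all and ranked 14 by p. In LucOS the change was 7.96 (adjusted p = 0.0531) when LucOS Aoah 1 was left out and 7.62 (adjusted p = 0.0591) when LucOS Aoah 3 was, so the call depends on both. Two-sided exact permutation tests of Aoah alone gave p = 0.0286 for 4 against 4 and p = 0.1 for 3 against 3, which in each case is the smallest p the design allows.

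The rise did not differ detectably between the models. It was 1.90 larger in LucOS (SE 1.44, limma adjusted p = 0.510), where 0.00743% of all genes passed this test. Without Luc vector 1 and 3 the Luc rise became 8.04 and the difference -0.19 (adjusted p = 0.905), so the sign of the difference rested on these vector tumors. Among Aoah tumors LucOS was 0.52 higher than Luc (SE 1.02, adjusted p = 0.943; 0.0817% of genes passed), and the exact permutation p was 0.286. Among vector tumors LucOS was lower by 1.38 (SE 1.02, adjusted p = 0.429; 0% of genes passed), with an exact permutation p of 0.571. That sign, too, turned without Luc vector 1 and 3 (0.71 higher, adjusted p = 0.775).

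The authors' deposited table for Luc gives Aoah a mean normalized count of 16465, a log2 fold change of 5.01 (SE 1.18) and an adjusted p of 0.000306. Among 19102 genes with an adjusted p in that table, 70 is its rank by fold and 1451 its rank by p. The authors' deposited table for LucOS gives a mean normalized count of 20814, a log2 fold change of 8.36 (SE 0.40) and an adjusted p of 6.90e-94, and there Aoah ranks 1 of 16406 by both. The SE was larger for Luc than for LucOS in the authors' deposited tables, and the spread of TPM was larger among Luc vector than among LucOS vector tumors.

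Because myeloid and NK cells are native sources of Aoah, marker levels were set beside the vector tumors. In these bulk samples, fewer cells of a type and less RNA per cell cannot be told apart. All 10 Kupffer cell markers were above 0 in every tumor, and their summed level was 130, 129, 235 and 153 TPM in Luc vector 1 to 4 and 93.2, 233 and 91.9 TPM in LucOS vector 1 to 3. Luc vector 3 therefore had both the highest Aoah and the highest Kupffer sum of its group, whereas Luc vector 1, second in Aoah, had a Kupffer sum close to the lowest. LucOS vector 2 had a Kupffer sum like that of Luc vector 3 with an Aoah level of 1.59 TPM.

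The other candidate sources varied less than Aoah among Luc vector tumors, though not all did among LucOS vector tumors. The sum of 13 pan-macrophage markers, all above 0 in every tumor, was 373, 296, 444 and 381 TPM in Luc vector 1 to 4. LucOS vector tumors had 349, 433 and 746 TPM, and LucOS vector 3 also had the highest Aoah of that group. The sum of 12 NK cell markers was 51.2 to 72.0 TPM in Luc vector tumors, with Luc vector 1 highest. It was 73.8 to 179 TPM in LucOS vector tumors, with LucOS vector 3 highest. Most of each sum came from Tyrobp, at 48.0 to 60.7 TPM in Luc vector and 63.7 to 150 TPM in LucOS vector tumors. Ncr1, of the same list, stood at only 0.03 to 0.26 TPM in vector tumors, so the sum mainly follows Tyrobp. Klra4, Klra8 and Prf1 of that list were at 0 in at least 1 Luc vector tumor. The sum of 12 dendritic cell markers was 6.03 to 11.2 TPM in Luc vector and 10.7 to 15.1 TPM in LucOS vector tumors. Monocyte and neutrophil sums ran from 73.4 to 139 TPM and from 142 to 396 TPM in Luc vector tumors, both highest in Luc vector 2. In LucOS vector 1 to 3 the monocyte sum was 214, 130 and 354 TPM and the neutrophil sum 410, 849 and 931 TPM, both highest in LucOS vector 3, as Aoah was. The part of these cells in the Aoah level of any vector tumor was not tested.

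The same markers were read in Aoah tumors. Kupffer sums overlapped with those of vector tumors in both models, and pan-macrophage sums overlapped in LucOS but not in Luc. Luc Aoah tumors had a pan-macrophage sum of 654 to 660 TPM and a Kupffer sum of 202 to 304 TPM. For LucOS Aoah tumors these sums were 534 to 1445 TPM and 108 to 296 TPM. In Luc, 3 of 10 Kupffer markers rose (Clec4f, Folr2 and Timd4), as did 3 of 13 pan-macrophage markers (Aif1, Lyz2 and Ms4a7), beside 7.93% of all genes, and none fell. Clec4f, a lectin of Kupffer cells, rose by 2.02 on the log2 scale (SE 0.67, limma adjusted p = 0.0460), and Timd4, a receptor for phosphatidylserine, by 1.40 (SE 0.35, adjusted p = 0.0158). Adgre1, the gene of F4/80, changed by 0.73 (adjusted p = 0.0770) and Csf1r, the receptor for macrophage colony-stimulating factor, by -0.35 (adjusted p = 0.592). Of 12 NK markers 5 passed the filter on low values, Gzma, Klrd1, Klrk1, Tyrobp and Xcl1, and these 5 rose in Luc. Ncr1 did not pass it. In the same comparison 12 of 15 T cell markers rose, and a rise of NK cells apart from T cells was not tested. Of 13 neutrophil markers 10 passed it, and 5 of these fell in Luc, beside 14.3% of all genes. In LucOS no Kupffer, pan-macrophage, NK or neutrophil marker was called, where only 0.965% of all genes were, and 4 of 15 T cell markers rose. Aoah differed by more than any of these.

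The neighbors of Aoah at its native locus were measured as well. The annotated genes next to and inside Aoah are olfactory receptors, pseudogenes and a small nuclear RNA, and the 2 that are in the table, Gm7614 and Gm47727, did not exceed 0.26 TPM in any tumor. The nearest genes that reached 1 TPM in at least 3 tumors were Epdr1, Stard3nl and Vps41 before it and Trim27, Zscan12 and Zkscan3 after it. None of these was called in LucOS, where only 0.965% of all genes were. Their log2 changes there lay between -0.57 and 0.35 (limma adjusted p from 0.449 to 0.999).

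In Luc, Stard3nl, which tethers late endosomes to the endoplasmic reticulum, rose by 0.69 (SE 0.21, adjusted p = 0.0355). Trim27, a ubiquitin ligase, fell by 0.76 (SE 0.25, adjusted p = 0.0412), and the other 4 were not called. Over all genes tested in Luc, 22.2% were called. In Luc vector 1 and 3, the vector tumors with raised Aoah, Stard3nl stood at 19.2 and 12.6 TPM against 17.9 and 16.6 TPM in Luc vector 2 and 4. Vps41, a lysosomal tethering subunit, stood at 17.6 and 22.3 TPM against 12.5 and 24.4 TPM. Neither neighbor followed the spread of Aoah among Luc vector tumors.

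Covariation with Aoah was then measured within each arm, where all tumors received the same plasmid, Aoah or vector. Likeness is Pearson's r of log2(TPM + 1) with Aoah over the 7 tumors of an arm after the mean of each model (Luc or LucOS) was subtracted. The slope is limma's log2 change of a gene for each unit of log2 Aoah, with the model as a term. Within Aoah tumors 1719 of 12537 genes had a slope at an adjusted p under 0.05, which is 13.7%. Of these 1587 rose with Aoah (12.7%) and 132 fell (1.05%). The median likeness over all genes was 0.62, and 76.6% of genes had a positive likeness.

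The number of calls depended on single tumors and on the scale. Without Luc Aoah 3, the lowest Aoah tumor, no gene was called by limma (2830 at an unadjusted p under 0.05), and without LucOS Aoah 3, the highest, 15 were called. Leaving out LucOS Aoah 2, Luc Aoah 2 or Luc Aoah 1 gave 205, 265 and 693 genes, and leaving out LucOS Aoah 1 gave 3845. When each tumor's median over all genes was subtracted, 206 genes rose and 891 fell, and the median likeness moved from 0.62 to -0.20. When each tumor's straight-line dependence on transcript length was subtracted, no gene was called by limma (3153 at an unadjusted p under 0.05). By exact permutation of the 5040 orders of 7 tumors, 3428 genes (27.3%) had p under 0.05 for r, and none had a Benjamini-Hochberg value under 0.05 (smallest 0.0996 for r and 0.142 for rho).

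The genes most like Aoah in Aoah tumors included plasma proteins of hepatocytes and RNA-binding proteins. Plg, the gene of plasminogen, stood at 229, 335, 112 and 242 TPM in Luc Aoah 1 to 4 and at 152, 143 and 329 TPM in LucOS Aoah 1 to 3. In Luc the order of Plg was that of Aoah, and in LucOS both were highest in LucOS Aoah 3, with LucOS Aoah 1 and 2 close to each other. Plg had a likeness of 0.99 and a slope of 1.37 (SE 0.21, adjusted p = 0.0314). F2, the gene of prothrombin, had likeness 0.98 and a slope of 0.86 (SE 0.21, adjusted p = 0.0354). Across the 7 tumors without subtraction of model means r was 0.76 for Plg and 0.72 for F2, since LucOS Aoah 1 and 2 held less of both than Luc tumors of like Aoah.

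Zfp36l1, a factor that speeds decay of AU-rich mRNAs, followed Aoah across both models. It stood at 18.2, 24.8, 9.58 and 17.0 TPM in Luc Aoah 1 to 4 and at 21.1, 23.5 and 33.5 TPM in LucOS Aoah 1 to 3. Its order was nearly that of Aoah (r = 0.99, exact permutation p = 0.000397, Benjamini-Hochberg 0.0996; rho = 0.96), and its slope was 0.96 (SE 0.23, adjusted p = 0.0354). Without the tumors farthest from the median, Luc Aoah 3 and LucOS Aoah 3, its r was 0.92.

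Son, a scaffold of nuclear speckles needed for splicing, stood at 41.8, 54.2, 27.0 and 39.8 TPM in Luc Aoah 1 to 4 and at 53.8, 56.0 and 72.6 TPM in LucOS Aoah 1 to 3. Its lowest and highest levels fell in the tumors with the lowest and highest Aoah (slope 0.71, SE 0.22, adjusted p = 0.0495). The slope became -0.14 after the adjustment for transcript length. The other 4 genes named for the highest likeness (0.99 each) were Vnn1, a pantetheinase, Atp2b1, a calcium pump of the plasma membrane, Rbm5, a splicing regulator, and Tdrd7, a protein of RNA granules. Vnn1 followed Aoah only inside each model: its level was 13.1 to 18.1 TPM in Luc Aoah 1, 2 and 4, against 7.10 and 6.35 TPM in LucOS Aoah 1 and 2, and its r without model means was 0.40 (exact permutation p = 0.410). Rbm5 did not pass the slope test (adjusted p = 0.0721).

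The 8 genes named for the lowest likeness included 4 with ribosomal protein symbols of pseudogenes or a retrogene. C1d, a cofactor of the nuclear exosome, stood at 96.8, 67.7, 141 and 93.2 TPM in Luc Aoah 1 to 4 and at 77.6, 73.0 and 52.7 TPM in LucOS Aoah 1 to 3. Its order was the exact reverse of that of Aoah (rho = -1, r = -0.98, exact permutation p = 0.000198, Benjamini-Hochberg 0.0996), with a slope of -0.78 (SE 0.21, adjusted p = 0.0400). Cep20, a centrosomal protein, had the same reversed order (rho = -1), and its slope of -0.51 did not pass (adjusted p = 0.103).

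Snora73b, a small nucleolar RNA of the H/ACA class, stood at 36.1, 17.9, 258 and 28.9 TPM in Luc Aoah 1 to 4 and at 28.9, 39.8 and 12.8 TPM in LucOS Aoah 1 to 3. Its slope was -2.79 (SE 0.30, adjusted p = 0.00915), and -1.96 without Luc Aoah 3 (adjusted p = 0.0929). Rpl9-ps6, a copy of a ribosomal protein gene that is named as a pseudogene and annotated as protein coding in GENCODE M21, stood at 49.9, 34.1, 94.6 and 45.3 TPM in Luc Aoah 1 to 4 and at 55.7, 64.3 and 28.0 TPM in LucOS Aoah 1 to 3 (slope -1.26, SE 0.23, adjusted p = 0.0314). Rps18-ps5, Rps27a-ps3 and the retrogene Rps27rt behaved alike, with likeness of -0.99, -0.97 and -0.97. These copies share sequence with their parent genes, so their reads may belong to the parents. Ccdc90b, a mitochondrial protein, completed the 8 genes and did not pass (slope -0.56, adjusted p = 0.0943).

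**Figure D2:**
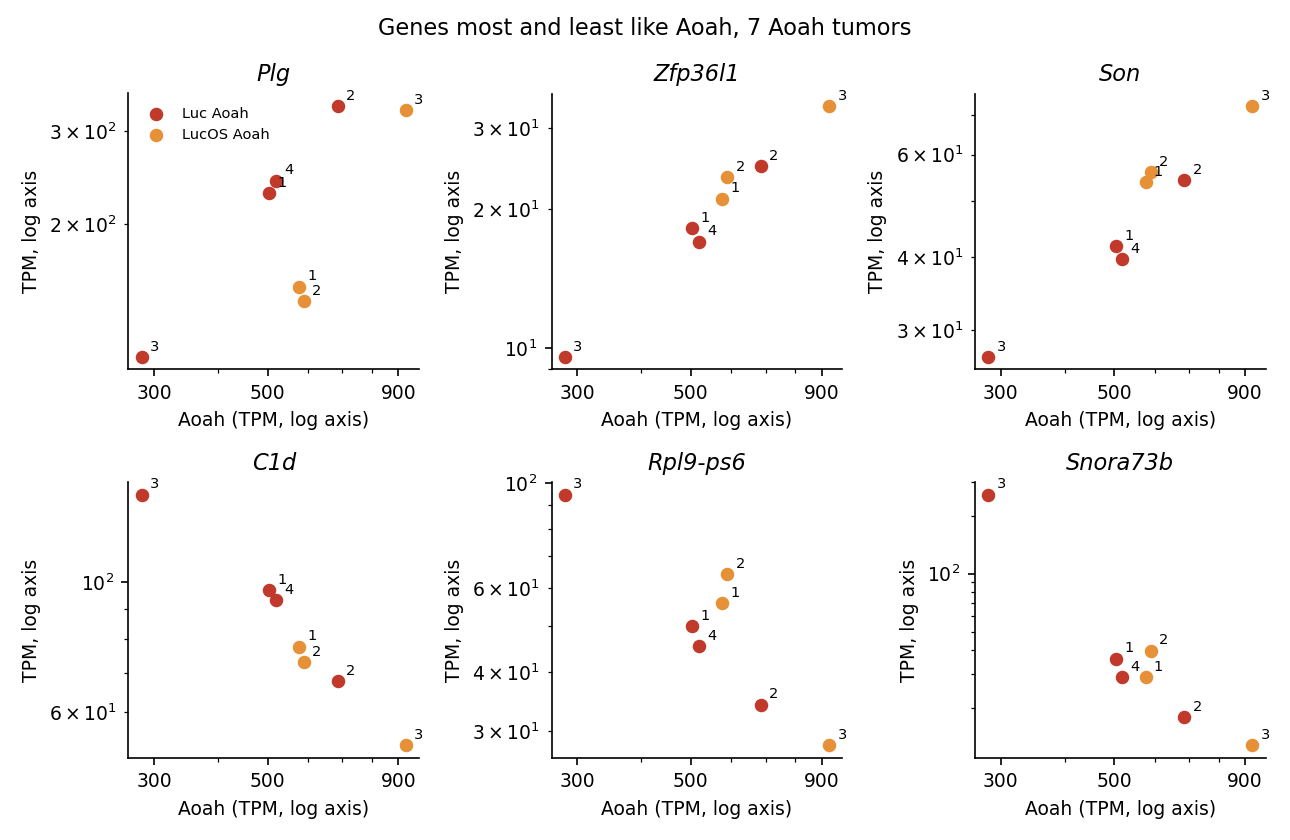
Levels of 6 genes (TPM, log axis) against Aoah (TPM, log axis) in the 7 Aoah tumors; points carry the tumor number. Plg, Zfp36l1 and Son were lowest in Luc Aoah 3, the tumor with the lowest Aoah, and C1d, Rpl9-ps6 and Snora73b were highest there.

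Of these 16 genes, 13 were called. With each tumor's median subtracted all 16 kept their sign and 7 of the 13 calls held. Without Luc Aoah 3 none of the 13 calls held, and without LucOS Aoah 3 only 2 did. The slopes themselves changed less. Without Luc Aoah 3 they were 0.70 (Snora73b) to 1.27 (Cep20) times as large, and 11 of 16 were as large or larger. These genes were named for an extreme likeness over the same tumors, so slopes of like size follow in part from that choice. Without LucOS Aoah 3 the ratio was 0.86 to 1.10, and without both it was 0.67 (F2) to 1.65 (Cep20). For Plg the slope was 1.56 without Luc Aoah 3, 1.24 without LucOS Aoah 3 and 1.19 without both. The slope of Plg was 0.86 with each tumor's median subtracted and 0.98 after the adjustment for transcript length. Under the length adjustment 13 of the 16 genes had a value, none was called, and 2 turned in sign.

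Of the 1587 genes that rose with Aoah, 1524 were protein coding outside the classes below. Those with a length had a median of 3811 bases, against 2992 bases for all genes tested, and 45.0% against 31.5% were 4000 bases or longer. Likeness climbed with the length of the longest annotated transcript, from a median of -0.34 for 1335 genes under 1000 bases to 0.37 for 1000 to 1999 bases, 0.62 for 2000 to 2999 bases and 0.79 for 1357 genes of 6000 bases or more. Across 12051 genes with a length, Spearman's rho of likeness and length was 0.43, and 0.37 after each tumor's median was subtracted. Genes within a tumor are not independent replicates. Aoah itself, at 2921 bases, belongs to the middle of this range.

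The calls by class stand beside 1.05% of all genes that fell with Aoah and 12.7% that rose. Ribosomal protein genes had a median likeness of -0.72, and 15 of 84 fell with Aoah while none rose. Nuclear genes of the mitochondrial respiratory chain had a median of -0.63 (9 of 97 fell, none rose), and ribosomal protein pseudogenes of -0.75 (19 of 76 fell, none rose). Small noncoding RNA genes had a median of -0.74, and 6 of 81 fell. Mitochondrially encoded genes went the other way, with a median of 0.93 and 11 of 15 rising. The medians of the mitochondrially encoded and the nuclear respiratory chain class thus had opposite signs, with 80.0% and 21.6% of their genes positive. Genes were not split by respiratory complex.

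**Figure D3:**
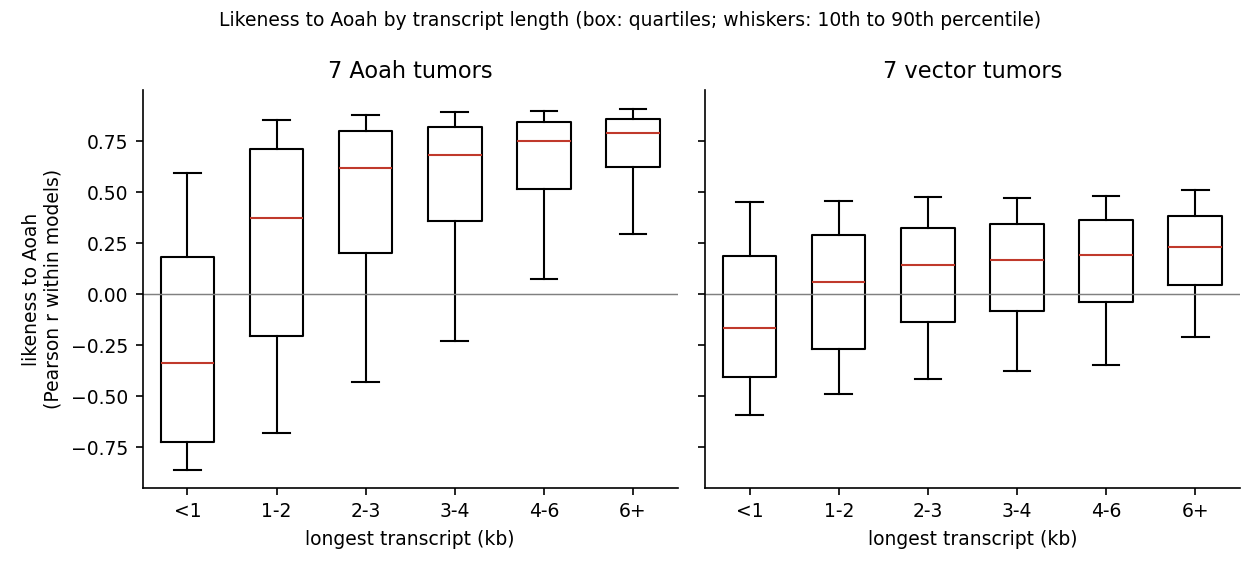
Likeness to Aoah (Pearson r within models) by length of the longest annotated transcript (kb), in 7 Aoah and 7 vector tumors; boxes are quartiles over genes, whiskers run from the 10th to the 90th percentile. The median rises from -0.34 to 0.79 in Aoah tumors and from -0.16 to 0.23 in vector tumors.

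Measures of the whole library moved with Aoah in the same way. The median log2 level of 4036 long coding genes (4000 bases or more) minus that of 1449 short ones (under 1500 bases) ran from -3.05 in Luc Aoah 3 to -2.03 in LucOS Aoah 3. Over the 7 Aoah tumors it followed log2 Aoah with r = 0.91 (exact permutation p = 0.00238, Benjamini-Hochberg 0.0286 over 12 such relations) and rho = 0.82 (exact p = 0.0341, Benjamini-Hochberg 0.199). Without Luc Aoah 3 and LucOS Aoah 3, r was 0.85. The share of small noncoding RNA had r = -0.85 (exact permutation p = 0.0240, Benjamini-Hochberg 0.0960; rho = -0.75), which became -0.06 without those tumors. The mitochondrial share had r = 0.77 (exact permutation p = 0.0847, Benjamini-Hochberg 0.149; rho = 0.75), which became 0.28. The part of library composition in the likeness of any gene named here was not tested.

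Gene lists for LPS handling, lipid metabolism, cell types and pathways were described by their median likeness, beside 0.62 for all genes, and by how many members rose, beside 12.7% of all genes. No member of any list fell with Aoah in Aoah tumors, where only 1.05% of all genes did. Among 18 tested genes for recognition and handling of LPS, the classical substrate, the median was 0.81 and 5 rose. They included Pltp, a phospholipid and LPS transfer protein of plasma (slope 1.18, SE 0.30, adjusted p = 0.0374), Alpl, a phosphatase that can dephosphorylate LPS (1.51, SE 0.36, adjusted p = 0.0352), and Lbp, the LPS-binding protein (1.07, SE 0.31, adjusted p = 0.0449). Tlr4 and Ly96, which form the LPS receptor, were not called (slopes 0.20 and 0.59, adjusted p = 0.618 and 0.170).

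Enzymes that act on phospholipids and lysophospholipids, the other substrates of Aoah, had a median of 0.75, and 6 of 19 rose. Lcat, which esterifies cholesterol in plasma, had a slope of 0.97 (SE 0.26, adjusted p = 0.0399), and Enpp2, which makes lysophosphatidic acid, of 1.08 (SE 0.29, adjusted p = 0.0400). Among 14 genes of arachidonate metabolism the median was 0.68 and 5 rose, among them Ephx1 and Ephx2, both epoxide hydrolases (slopes 1.50 and 0.78, adjusted p = 0.0314 and 0.0473). Of the 3 tested genes with saposin domains, which the small subunit of Aoah resembles, Psap, the prosaposin precursor (1.36, SE 0.27, adjusted p = 0.0314), and Smpd1, acid sphingomyelinase (0.96, SE 0.27, adjusted p = 0.0429), rose. The third, Manf, had a slope of -0.03 (adjusted p = 0.932).

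Hepatocyte genes had a median likeness of 0.74 and 9 of 23 rose. Pck1, the control enzyme of gluconeogenesis, stood at 108, 173, 51.6 and 196 TPM in Luc Aoah 1 to 4 and at 118, 67.5 and 316 TPM in LucOS Aoah 1 to 3 (slope 1.77, SE 0.35, adjusted p = 0.0314). The highest Pck1 in LucOS fell in the tumor with the highest Aoah, but the highest in Luc fell in Luc Aoah 4, whose Aoah was second. Albumin had a slope of 1.46 (SE 0.42, adjusted p = 0.0494). Targets of beta-catenin had a median of 0.83 and 7 of 15 rose, among them Cyp1a2, a cytochrome P450 of the pericentral hepatocyte (2.15, SE 0.38, adjusted p = 0.0314), and Glul, glutamine synthetase (0.97, SE 0.26, adjusted p = 0.0400). Ctnnb1 itself, at 129 to 260 TPM in Aoah tumors, was not called (slope 0.47, SE 0.25, adjusted p = 0.190). Mouse Myc, at 0.93 to 4.10 TPM, had a slope of 0.87 (SE 0.26, adjusted p = 0.0460).

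Among cell types that natively make Aoah, Kupffer markers had a median of 0.65 and 1 of 9 rose, which was Marco, a scavenger receptor (slope 1.46, SE 0.30, adjusted p = 0.0314). Dendritic cell markers had a median of 0.71 and 1 of 5 rose. Pan-macrophage markers had a median of 0.57 and 3 of 13 rose, Csf1r, Cd68 and C1qc. NK markers had a median of 0.08 and monocyte markers of 0.03, with none of 5 called in either list, and neutrophil markers had -0.54, with none of 5 called. T cell markers had 0.61 (2 of 15 rose), endothelial markers 0.77 (3 of 11 rose), and targets of MYC 0.16 (none of 20 called).

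The remaining lists had 1 to 3 rising members each, beside 12.7% of all genes. Interferon gamma response genes had a median of 0.63 (2 of 20 rose), cell cycle genes 0.47 (1 of 20), acute phase genes 0.52 (3 of 20), fetal liver and tumor markers 0.53 (2 of 13), stellate cell and fibroblast markers 0.55 (1 of 12), and B and plasma cell markers -0.18 (1 of 5). On the scale with each tumor's median subtracted, where all genes had a median of -0.20, the lists for LPS handling, phospholipid enzymes, hepatocytes and beta-catenin targets had 0.53, 0.40, 0.43 and 0.58. Kupffer, pan-macrophage and dendritic cell markers had 0.25, 0.16 and 0.43 there. The medians for cell cycle genes, MYC targets, NK cell, monocyte, and stellate cell and fibroblast markers turned negative on that scale (-0.20, -0.54, -0.26, -0.34 and -0.01). Since no slope was called without Luc Aoah 3, no count given for a list holds without that tumor.

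Median slopes were also taken over the genes with a value in each fit without these tumors. Over all 12067 such genes the median slope was 0.41, and it was 0.30 without Luc Aoah 3, 0.50 without LucOS Aoah 3 and 0.65 without both. LPS handling had 0.84, 1.29, 0.70 and 0.97 in the same order, and beta-catenin targets 0.84, 0.78, 0.81 and 0.56. Phospholipid enzymes had 0.80, 0.97, 0.58 and 0.44, and arachidonate metabolism 0.62, 0.94, 0.44 and 0.54. Interferon gamma response genes had 1.02, 2.08, 0.40 and 0.0005. Without both tumors, all of these lists except LPS handling were thus below the 0.65 of all genes. Hepatocyte genes had 0.97, 0.97 and 0.80, but -0.90 without both tumors, and Kupffer markers 0.79, 1.18 and 0.37, but -0.50. The sign of these last lists thus rested on Luc Aoah 3 and LucOS Aoah 3 together. T cell markers (-0.09), and stellate cell and fibroblast markers (-0.14), were also negative without both, as was the list of genes that differ between the arms (-0.23). NK cell markers turned without LucOS Aoah 3 (-0.33) and without both (-0.92). Cell cycle genes (-0.21) and MYC targets (-0.58) turned without Luc Aoah 3, and B and plasma cell markers turned without LucOS Aoah 3 (0.13). Genes under 1000 bases had -0.24, -0.50, -0.13 and -0.24, and genes of 6000 bases or more 0.64, 0.67, 0.71 and 1.21, so the contrast by length was present in each fit. Ribosomal protein genes had -0.54, -1.05, -0.26 and -0.43, and mitochondrially encoded genes 1.27, 1.69, 1.13 and 0.53.

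**Figure D4:**
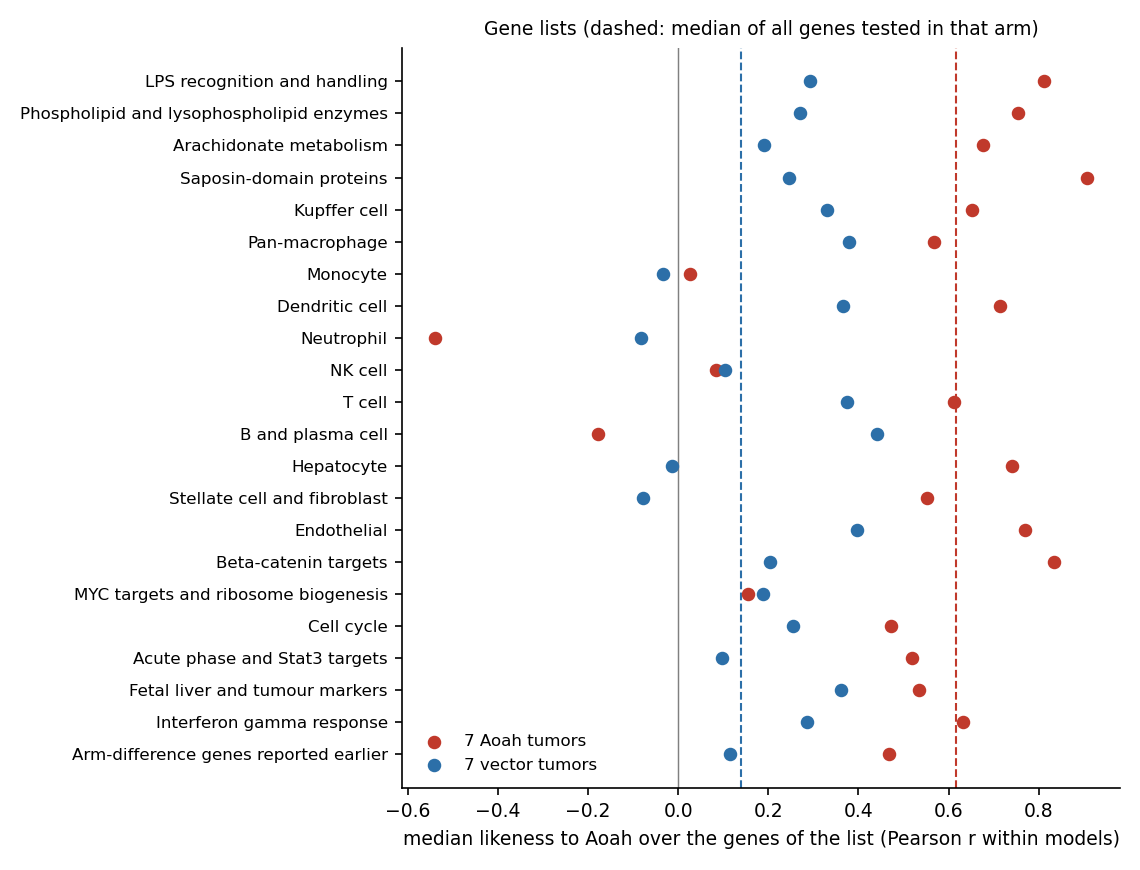
Median likeness to Aoah (Pearson r within models) over the genes of 22 lists, in 7 Aoah and 7 vector tumors; dashed lines mark the median over all genes of each arm, 0.62 and 0.14. Beta-catenin targets (0.83) and LPS handling (0.81) lie above the line for Aoah tumors, and neutrophil markers (-0.54) far below it.

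Within vector tumors the range of Aoah was wider but the covariation weaker. Limma called 1 of 12472 genes (0.00802%, with 92 at an unadjusted p under 0.05), and no gene passed by exact permutation after Benjamini-Hochberg adjustment (smallest 0.833). The median likeness was 0.14, with 63.2% of genes positive. Aoah fell into 2 sets here, Luc vector 1 and 3 against the other 5 tumors. Since model means are subtracted, a likeness mostly compares Luc vector 1 and 3 with Luc vector 2 and 4. The coefficients below are therefore descriptions. The called gene, Gm10243, a predicted gene outside the rule for names, stood at 0, 11.9, 0 and 14.9 TPM in Luc vector 1 to 4 and at 39.6, 33.0 and 32.0 TPM in LucOS vector 1 to 3 (slope -0.84, SE 0.10, adjusted p = 0.0297). It was listed at 0 in both tumors with raised Aoah, and also in Luc Aoah 1 and LucOS Aoah 1. Leaving out single tumors gave 0 to 12 calls, the most without LucOS vector 2, and leaving out Luc vector 1 and 3 together gave 7.

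Kctd17, an adaptor of a cullin ubiquitin ligase, was the gene most like Aoah in vector tumors. It stood at 8.51, 2.69, 9.54 and 4.04 TPM in Luc vector 1 to 4 and at 3.60, 4.08 and 4.85 TPM in LucOS vector 1 to 3. Its order was nearly that of Aoah (likeness 0.96, rho = 0.96), also among the tumors with little Aoah (r = 0.80 without Luc vector 1 and 3, n = 5). In Aoah tumors, with far more Aoah, Kctd17 stood at 1.22 to 4.34 TPM, no higher than in vector tumors, and followed Aoah there with likeness 0.80 (slope 0.97, SE 0.32, adjusted p = 0.0572).

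The other genes named for a high likeness were Tmem267, Lrp3, Ier3, Mdn1, Mir719, Gpc3 and Gtpbp6, with likeness from 0.78 to 0.87. Gpc3, glypican 3, a fetal liver proteoglycan used as a marker of hepatocellular carcinoma, stood at 353 and 358 TPM in Luc vector 1 and 3 against 235 and 237 TPM in Luc vector 2 and 4, and at 153, 116 and 199 TPM in LucOS vector 1 to 3. It was highest where Aoah was highest in both vector groups, yet it was lower in Aoah tumors, at 7.95 to 55.9 TPM (Luc change -3.88, SE 0.55, adjusted p = 0.000620). Ier3, an immediate early gene, stood at 17.6 and 30.2 TPM in Luc vector 1 and 3 against 13.9 and 11.5 TPM in Luc vector 2 and 4.

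Serpinh1, a collagen chaperone, had the clearest opposite order. It stood at 6.38, 10.8, 4.24 and 10.6 TPM in Luc vector 1 to 4 and at 8.34, 6.96 and 8.38 TPM in LucOS vector 1 to 3 (likeness -0.95, rho = -0.89). Its slope of -0.22 became 0.092 without Luc vector 1 and 3. The others were Serf1, Trdmt1, Ormdl1, Cbr3, Rexo5, Spryd7 and Selenoh, with likeness from -0.96 to -0.76. None of these 16 genes passed the slope test (adjusted p = 1.00 for each).

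In vector tumors the list medians ran from -0.08 to 0.44, beside 0.14 for all genes, and no member of any list was called. Pan-macrophage markers had 0.38, Kupffer markers 0.33, T cell markers 0.37, LPS handling 0.29, phospholipid enzymes 0.27, hepatocyte genes -0.01 and neutrophil markers -0.08. The contrast with Aoah tumors was widest for hepatocyte genes, 0.74 against -0.01, a difference that was not tested.

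The arms share no tumor, so their likenesses could be set side by side. Across 11861 genes tested in both, Spearman's rho between the likeness in Aoah tumors and that in vector tumors was 0.49. Of 1571 genes that rose with Aoah in Aoah tumors and were tested in vector tumors, 93.6% had a positive likeness in vector tumors (median 0.32), against 62.9% of all genes. Of 127 that fell, 6.30% did (median -0.38). The classes kept their sign: in vector tumors mitochondrially encoded genes had a median of 0.62, ribosomal protein genes -0.36, nuclear respiratory chain genes -0.31, small noncoding RNA genes -0.31 and ribosomal protein pseudogenes -0.30. Among the negative classes the order was not the same, since the pseudogenes were lowest in Aoah tumors and least low in vector tumors. The long minus short measure was -1.94 and -1.59 in Luc vector 1 and 3 and ran from -2.39 to -1.59 in the other 5 vector tumors. Its part in the likeness was not tested.

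A list of genes that differ between the arms was also read inside each arm. For 24 genes reported earlier as differing between Aoah and vector tumors, the median likeness was 0.47 in Aoah tumors, under the 0.62 of all genes, and 2 of 24 were called, beside 13.7% of all genes. In vector tumors it was 0.12, and none of 23 was called. Cyp2c50, a hepatocyte cytochrome P450, stood at 105, 125, 57.0 and 169 TPM in Luc Aoah 1 to 4 and at 0.45, 1.18, 1.65 and 0.99 TPM in Luc vector 1 to 4. Its slope within Aoah tumors was 1.43 (SE 0.46, adjusted p = 0.0641). Inmt, a methyltransferase of hepatocytes, stood at 121, 63.7, 76.2 and 347 TPM in Luc Aoah 1 to 4, an order unlike that of Aoah (slope 0.62, SE 0.86, adjusted p = 0.630).

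Some genes that were lower in Aoah tumors rose with Aoah inside that arm, where 76.6% of all genes had a positive likeness and 12.7% rose. No slope in that arm was called without Luc Aoah 3. Serpina3n, an acute phase protease inhibitor, was lower by 3.34 in Luc Aoah than in Luc vector tumors on the log2 scale, but inside the Aoah arm it rose with Aoah (slope 1.34, SE 0.38, adjusted p = 0.0444). Without subtraction of model means its r with Aoah there was 0.57 (exact permutation p = 0.187). It stood at 50.2, 114, 27.0 and 26.8 TPM in Luc Aoah 1 to 4 and at 32.1, 30.8 and 58.8 TPM in LucOS Aoah 1 to 3, and at 248 to 671 TPM in Luc vector tumors. Luc Aoah 4, second in Aoah among Luc Aoah tumors, had the lowest Serpina3n of the arm. Lbp fell by 2.01 in Luc (SE 0.42, adjusted p = 0.00670) and also rose with Aoah inside the Aoah arm, as given above. Cd14, the LPS coreceptor, stood at 6.94, 12.0, 4.52 and 4.74 TPM in Luc Aoah 1 to 4 and at 25.1 to 40.6 TPM in Luc vector tumors. Its slope inside the Aoah arm was 0.90 (SE 0.30, adjusted p = 0.0600). Reg3b, a C-type lectin of the acute response, had no call inside the arm (slope -1.36, SE 2.24, adjusted p = 0.686).

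Luc vector 1 and 3 had Aoah levels between those of the other vector tumors and those of the Aoah tumors. Levels of 3 of these genes are given beside them, and a relation to dose was not tested. With Aoah at 18.6 and 54.8 TPM, Reg3b stood at 2153 and 1103 TPM there, against 2163 and 1296 TPM in Luc vector 2 and 4, where Aoah was under 1 TPM. Cyp2c50 stood at 0.45 and 1.65 TPM against 1.18 and 0.99 TPM, and Inmt at 1.09 and 2.11 TPM against 3.15 and 1.22 TPM. Luc vector 3 had the lowest Reg3b and the highest Cyp2c50 of its group, and Luc vector 1 the lowest Cyp2c50 and Inmt. In Luc Aoah tumors Reg3b was 1.20 to 10.8 TPM. These 3 genes come from the list above, whose members were taken because they differ between the arms. A gap between the arms wider than the spread among Luc vector tumors follows from that choice.

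**Figure D5:**
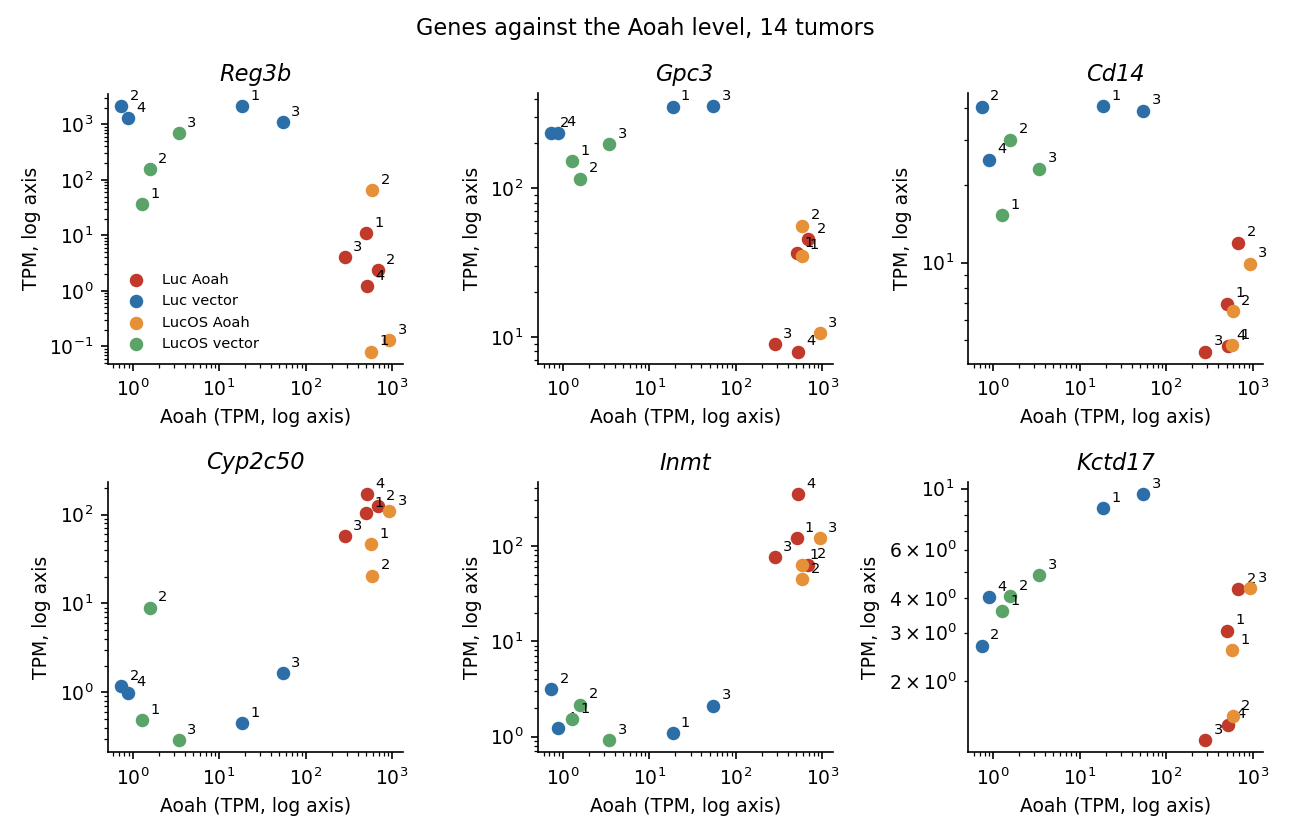
Levels of 6 genes (TPM, log axis) against Aoah (TPM, log axis) in 14 tumors; points carry the tumor number. In Luc the arms do not overlap in Reg3b, Gpc3, Cd14, Cyp2c50 and Inmt, also with Luc vector 1 and 3 at 18.6 and 54.8 TPM of Aoah. All of these come from the list of genes that differ between the arms, so their separation follows from that choice. Kctd17 overlaps in Luc, and in LucOS Reg3b overlaps as well (66.2 TPM in LucOS Aoah 2 and 36.7 TPM in LucOS vector 1).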

How the data were processed

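Bulk polyA RNA was measured in 14 tumors of 4 groups, taken from the labels. Per the labels' protocols, RNA was extracted with TRIzol, captured on poly-T beads and primed with random hexamers. Both directional and non-directional libraries are described without saying which was made, so Aoah reads may include an antisense partner. RSEM, DESeq2 and build mm39 are named per the submitters' processing notes; versions, aligner and annotation are not given in the sources used here. Expression was deposited as log2(TPM + 1) for gene symbols. The authors' deposited comparison tables hold mean normalized counts as a signal, log2 fold changes with a score (the Wald statistic), and p-values; which group is the numerator was read from the sign of Aoah. A deposited table of receptor repertoires was not used here.

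Those log2 values were tested in R 4.3.3 with limma 3.58.1, using trended and robust variances, Benjamini-Hochberg adjustment over all genes and a threshold of 0.05. Genes were kept at 1 TPM in at least 3 tumors. The level was tested with 1 mean per group over 14 tumors, and slopes over the 7 tumors of each arm with the model as a term. Changes on this scale understate those of low genes. Two-sided exact permutation tests used Python 3.11.15 with NumPy 2.4.6 and SciPy 1.17.1. GENCODE M21 matched 91.7% of symbols for lengths and classes.

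The gene, the lists and the rule for names were chosen with earlier results of these data known. Named were, in each arm, the 8 genes of highest and the 8 of lowest likeness among those with a mean of 5 TPM and a log2 range of 1 or more, without predicted or mitochondrial genes and receptor segments, then neighbors of Aoah and up to 4 genes per list. The scripts were tested on simulated data. Alternatives were another pseudocount, no filter, no trend, no model term, rescaled TPM, left-out tumors and the replicate number as a block; median centring, the length adjustment and leaving out Luc Aoah 3 and LucOS Aoah 3 together were chosen after seeing the data. Same-numbered Aoah and vector tumors did not deviate together over all genes, and the main fits do not pair them. Whether same-numbered tumors shared a batch was not tested.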

Additional observations from a re-analysis of the deposited data

Results flagged for a closer look

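Of 50 sets of 4 tumors examined, 4 held a tumor whose gap to the nearest other exceeded 0.829 of the range, and chance gives about 1 in 20. The small noncoding RNA share was 9.19% in Luc Aoah 3, where Luc Aoah 1, 2 and 4 had 1.23% to 1.63%. The same share was 2.05% in Luc vector 2, where Luc vector 1, 3 and 4 had 1.18% to 1.32%. Snora73b stood highest in Luc Aoah 3, at 258 TPM, with 17.9 to 36.1 TPM in the rest of that group. Cd14 was low in Luc vector 4, at 25.1 TPM, with 38.9 to 40.6 TPM in the rest of that group. The level of Aoah itself exceeded this limit in none of the groups of 4.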

How the results depend on the processing

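The Aoah change in Luc was called under all 13 alternatives (5.22 to 6.89 leaving out single tumors, 8.04 without Luc vector 1 and 3). In LucOS it ranged from 7.62 to 8.13 leaving out single tumors and was lost without LucOS Aoah 1 or 3. The difference between models was 0.95 to 2.62 leaving out single tumors and -0.19 without Luc vector 1 and 3; among vector tumors LucOS minus Luc was -2.10 to -0.43 and 0.71. With the replicate number as a block the values were 5.94 (adjusted p = 0.00548), 7.84 (0.0305) and 1.90 (0.595) in limma, with no call changed; same-numbered tumors correlated at -0.55 to 0.10, and 1 of 7 pairs correlated best with its own number.

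Slope calls in Aoah tumors numbered 0 without a filter (6036 unadjusted), 679 with no trend, 1097 median-centred, 0 length-adjusted, 0 without Luc Aoah 3 and LucOS Aoah 3 (1032 unadjusted), and 0 to 3845 leaving out single tumors; the length adjustment turned Rbm5 (-0.074) and Son (-0.14). In vector tumors they numbered 2 with log2(TPM + 0.1), 7 without Luc vector 1 and 3, 0 to 12 leaving out single tumors, and 0 without a filter, model term or trend, rescaled, median-centred or length-adjusted. Without Luc vector 1 and 3 the slopes of Lrp3 (-0.19), Serpinh1 (0.092), Trdmt1 (0.081) and Spryd7 (0.030) turned. Without the filter 27277 genes were tested in Aoah tumors. The cause was not tested for the other changes. Depth per tumor was not given by the values used here.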
